A study of Mus musculus with 17 samples.

Results

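The 6 genes described here, Pdgfra, Cd44, Vcam1, Thy1, Eng and Kitl, encode cell surface proteins that are used to recognise or sort mesenchymal stem cells, or, for Kitl, that such cells present to their neighbours. They were taken by symbol from a table of 8446 genes, and each symbol had exactly 1 row. The table holds 17 single cells from the back skin of adult C57BL/6 mice of genotype Prrx1-CreERT;Tomato, and all cells form 1 group. Tamoxifen had been injected at 2 mg per 30 g of mouse once a day for 3 days, which lets the Cre recombinase mark cells in which the Prrx1 driver is active with the red Tomato protein for good. After digestion with elastase and collagenase, red cells were enriched by flow sorting and then picked by hand, 1 at a time. Cells were thus chosen for the red mark, and Tomato itself is not analysed here. Neither the animal of a cell nor the sex or number of animals is given in the labels, so the 17 cells were treated as 1 sample, and no test between conditions is possible.

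Mesenchymal stem or stromal cells are rare connective tissue cells that can form bone, cartilage and fat in culture. They have no single defining protein and are recognised by a combination of surface antigens, most of which ordinary fibroblasts also carry. In skin, Pdgfra, Thy1 and Cd44 are widely carried by dermal fibroblasts, whereas Eng and Vcam1 are also known from blood vessel lining and Kitl from keratinocytes. The presence of these transcripts therefore does not set a stem cell apart from a fibroblast.

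The deposited values were read as log2(FPKM + 1), where FPKM is fragments scaled by gene length and library size. A gene was called detected at FPKM 1 or more, which is a value of 1 on this scale. The sorted values were almost the same in every cell, so that each cell has 4369 genes at FPKM 1 or more (51.7% of rows) and 2970 at FPKM 10 or more (35.2%). Such a shared distribution gives each cell the same total, and the reads behind a value are unknown. Clustering of the cells on genes that were low in all of them gave 3 sets, namely cells 1 to 5, cells 6 to 14 and cells 15 to 17. The number of sets, 3, was fixed in the clustering, so it is not a result of the data. The study defined no such sets, and values by set are given for some of the genes. Prrx1, the gene of the Cre driver, was detected in 17 of 17 cells, and of 14 measured fibroblast markers each cell had 12 to 14. These markers include Prrx1, Pdgfra and Thy1, so the count is not independent of the driver or of the 6 genes.

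Pdgfra, Cd44 and Vcam1 were detected in every cell, Thy1 in 15, Kitl in 7 and Eng in 5. Over all rows of the table, 13% were detected in all 17 cells, 21.3% in 15 or more, 58.4% in 7 or more and 73.1% in 5 or more. Detection in every cell has an exact Clopper-Pearson 95% interval from 80.5% to 100%, which covers counting error over cells only. The same interval runs from 63.6% to 98.5% for Thy1, from 18.4% to 67.1% for Kitl and from 10.3% to 56.0% for Eng. The genes thus fall into 3 that every cell carried, 1 that nearly every cell carried at very different levels, and 2 that most cells lacked at this threshold.

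**Figure D1:**
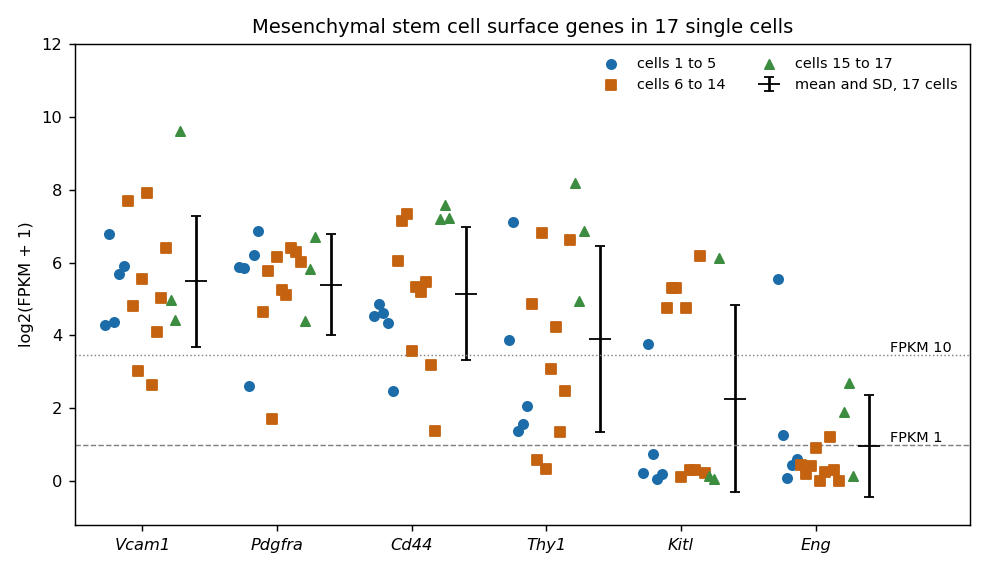
Value of each of the 6 genes in each of 17 cells, as log2(FPKM + 1) on the vertical axis, with colour and shape for the 3 sets of cells, black bars for the mean and SD over 17 cells, and lines at FPKM 1 and FPKM 10. Vcam1, Pdgfra and Cd44 lie above FPKM 1 in all cells, Thy1 spreads from 0.33 to 8.20, and Kitl splits into 7 cells at 3.76 or more and 10 cells at 0.74 or less.

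The start sites of 4 of the 6 genes had an entry in RefSeq's promoter table (build GRCm38.p6), those of Pdgfra, Cd44, Eng and Kitl. They are shown because Kitl lay either at 3.76 or more or at 0.74 or less in each cell, while Pdgfra and Cd44 were detected throughout. Any relation of these sequences to the values was not tested. RefSeq and GENCODE place the start of Cd44 and Eng at the same base, but RefSeq's start of Pdgfra lies 41 bases before that of GENCODE, and its start of Kitl lies 191 bases inside the GENCODE gene. Each line gives the bases from 40 to 11 before whichever of these starts lies further upstream, 5′ to 3′ on the gene's strand, and capitals would mark the letters TATAAA, the core of the TATA box, which none of the 4 stretches holds.
Pdgfra: ttttgaagagaccaagggggggggggactt
Cd44: ggccctggagaacgtgggcgcacgggggct
Eng: gcctggcaggcagcctggcccggccccttc
Kitl: tccgagactcccggtgcctcagggactctg
These stretches lie at chr5:75152211-75152240 on the plus strand for Pdgfra, chr2:102901676-102901705 on the minus strand for Cd44, chr2:32646555-32646584 on the plus strand for Eng and chr10:100015590-100015619 on the plus strand for Kitl.
In the same window before RefSeq's own start, which for Kitl lies inside the GENCODE gene, Kitl held TATAAA on the forward strand, as 2.08% of all 32851 RefSeq promoters do, and the other 3 did not. Within the 250 bases before the RefSeq start, searched on both strands, Kitl also held a GC box (GGGCGG, in 32.7% of promoters), while Pdgfra, Cd44 and Eng held none of TATAAA (12.4% of promoters), GGGCGG or CCAAT (33.8%). Kitl had 23 CpG dinucleotides in these 250 bases, more than 86.7% of promoters, against 4 in Pdgfra, 5 in Cd44 and 4 in Eng and a median of 6 over all promoters. The matches describe the letters of these windows and were not tested as binding sites.

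Pdgfra encodes the alpha receptor for platelet-derived growth factors, a tyrosine kinase that marks most dermal fibroblasts. The gene (ENSMUSG00000029231) lies on chromosome 5 from 75152292 to 75198215 on the plus strand of GRCm38. Its value ran from 1.71 in cell 8 through a median of 5.85 to 6.87 in cell 5, with a mean of 5.39 (SD 1.39, n = 17 cells). Only cells 8 and 3 (2.61) stood below FPKM 10, so that 15 cells passed it, as 10.3% of rows did in 15 or more cells. Pdgfra was the steadiest of the 3 genes found in every cell. Among the 420 other rows with a mean within 0.5 of its own, the median SD was 2.20, and 7.86% had a lower SD than Pdgfra.
The mean was 5.48 in cells 1 to 5, 5.26 in cells 6 to 14 and 5.64 in cells 15 to 17, so the sets differed by much less than the spread over cells.

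Of 15 genes of PDGF signalling, 13 had a row, and Pdgfra was the only 1 of them detected in all 17 cells. The ligand genes Pdgfa and Pdgfb had no row and are not analysed here. The adaptor gene Crk (mean 3.74, SD 2.44) and the regulatory subunit gene of PI3-kinase, Pik3r1 (mean 3.60, SD 2.44), were each detected in 14 cells, and the phosphatase gene Ptpn11 (mean 2.28, SD 1.48) in 13. The sister receptor Pdgfrb was detected in 10 cells and at FPKM 10 or more in 4. Its highest values were 6.56 in cell 16, 4.77 in cell 5 and 4.73 in cell 4, each a cell with Pdgfra at 5.83 or more. The ligand gene Pdgfc was found in cells 2, 6, 7 and 10, and Pdgfd in cell 2 alone, at 6.52. Across cells, the Pearson correlation of Pdgfra with Pdgfrb was 0.51 (Spearman 0.49, n = 17), given as a description of cells that share 1 preparation and 1 normalisation. Over the 12 partners the median Spearman correlation with Pdgfra was -0.08, from -0.55 for Crk to 0.53 for Pik3ca. Pdgfra thus showed no common relation to the genes of this list. The receptor was thus widespread while transcripts of the measured ligands, Pdgfc and Pdgfd, were confined to 4 of these 17 cells at FPKM 1. Without Pdgfa and Pdgfb this does not describe the ligands as a whole.

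Cd44 encodes the main receptor for hyaluronan, a large sugar polymer of the dermis. The gene (ENSMUSG00000005087) lies on chromosome 2 from 102811141 to 102901665 on the minus strand. Its value ran from 1.38 in cell 14 through a median of 5.18 to 7.58 in cell 16, with a mean of 5.14 (SD 1.82), and 14 cells reached FPKM 10. Cells 15, 16 and 17 were at 7.19, 7.58 and 7.22, and cells 7 and 8 at 7.13 and 7.34 were the only others above 7.
All 5 cells of the set 1 to 5 lay below these, between 2.48 and 4.86, with a set mean of 4.16 against 4.96 in cells 6 to 14 and 7.33 in cells 15 to 17. The sets come from low values, and no label names a batch. A difference between cells and one between libraries therefore cannot be told apart here. Without cells 15 to 17 the mean was 4.67. Cd44 has many splice forms, which gene values do not separate.

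Of 15 genes of hyaluronan metabolism and Cd44 partners, 7 had a row, and 3 were detected in all cells. Tnfaip6, a secreted protein that links hyaluronan to other matrix molecules, stood at a mean of 10.14 (SD 1.68) and was never below 6.67. The hyaluronan synthase Has1 had a mean of 6.72 (SD 2.48), from 1.56 in cell 8 to 11.30, and the hyaluronan-binding proteoglycan Vcan a mean of 6.13 (SD 2.56). The synthase Has2 was detected in 11 cells and at FPKM 10 or more in 5. Msn and Rdx, which tie the tail of Cd44 to the actin skeleton, were detected in 16 and 15 cells, and the hyaluronidase Hyal1 in none, with a highest value of 0.95. The Spearman correlation of Cd44 with these genes had a median of 0.32 over 7 genes and was highest for Has2, at 0.42 (Pearson 0.38). Receptor, synthase and linker transcripts were therefore present together in each cell, with at most weak co-variation in level.

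Vcam1 encodes an adhesion molecule that holds white blood cells by their alpha-4 integrin and is induced by inflammatory signals through NF-kB. The gene (ENSMUSG00000027962) lies on chromosome 3 from 116109949 to 116129688 on the minus strand. Its value ran from 2.65 in cell 11 through a median of 5.02 to 9.62 in cell 17, with a mean of 5.48 (SD 1.79), and no cell was below FPKM 5. Cell 17 held an FPKM of 786 against a mean of 103 over 17 cells. The next highest cells were 10 at 7.92 and 6 at 7.69, and the lowest after cell 11 was cell 8 at 3.03. Cell 17 also had the highest mean of the 6 genes, 6.11, while cell 3 had the lowest, 2.30.

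Of 13 Vcam1 partners and NF-kB pathway genes, 12 had a row. The NF-kB inhibitor gene Nfkbia (mean 9.33, SD 1.09), the integrin subunit Itgb1 (mean 5.98, SD 1.02) and the NF-kB subunit Nfkb1 (mean 5.35, SD 2.02) were present in every cell, and the NF-kB target Tnfaip3 (mean 5.29, SD 2.54) in 16. The related adhesion gene Icam1 was detected in 11 cells and ranged from 0.16 to 9.24. Vcam1 and Icam1 showed little relation over cells (Pearson -0.13, Spearman 0.04), although both are known NF-kB targets. Of the 12 partners Nfkb1 had the highest Spearman correlation with Vcam1, 0.38 (Pearson 0.43), and the median over the 12 was 0.06.

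Thy1 encodes a small glycoprotein that a lipid anchor holds in the outer leaf of the membrane, a classical fibroblast and stromal cell antigen. The gene (ENSMUSG00000032011) lies on chromosome 9 from 44043384 to 44048579 on the plus strand. Its value ran from 0.33 in cell 9 through a median of 3.87 to 8.20 in cell 15, the widest range of the 6 genes at 7.87, with a mean of 3.90 (SD 2.55). Of the 15 cells above FPKM 1, 10 passed FPKM 5 and 9 passed FPKM 10, so the count depends strongly on the threshold. Cells 2 (7.11), 17 (6.87), 8 (6.80) and 14 (6.61) followed cell 15, and cells 7 (0.57) and 9 (0.33) were below FPKM 1. Its SD was close to that of genes at its level, since the median SD of 739 rows with a mean within 0.5 was 2.43.
The mean was 6.67 in cells 15 to 17, 3.36 in cells 6 to 14 and 3.19 in cells 1 to 5, but high values stood in every set, as cells 2, 8 and 14 show.

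Of 17 Thy-1 partners and other proteins with a lipid anchor, 14 had a row and 7 were detected in all cells. The lipid-anchored Ly6c1 (mean 11.89, SD 1.16), Prnp, the prion protein (mean 8.13, SD 1.06), and Ly6e (mean 7.76, SD 1.85) were far above Thy1 and varied less, as did the raft scaffold gene Cav1 (mean 7.36, SD 1.69). The integrin subunits that bind Thy-1 differed from each other, with Itgav detected in 17 cells and Itgb3 in 12. Itgb3 had the highest Spearman correlation with Thy1 among the 14, 0.50 (Pearson 0.50), while the median was -0.02. Thy1 levels therefore showed no common relation to the other lipid-anchored genes over these cells.

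Kitl encodes stem cell factor, the ligand of the Kit receptor, which feeds melanocytes, mast cells and blood stem cells and is made as a membrane-bound and a shed form. The gene (ENSMUSG00000019966) lies on chromosome 10 from 100015630 to 100100416 on the plus strand. It was detected in cells 13 (6.19), 17 (6.12), 8 (5.30), 7 (5.29), 6 (4.75), 10 (4.75) and 2 (3.76). The other 10 cells lay between 0.06 in cell 16 and 0.74 in cell 3, so no cell was between 0.74 and 3.76. All 7 detected cells passed FPKM 10, as 35.9% of rows did in 7 or more cells.
The mean over 17 cells, 2.27 (SD 2.56), therefore describes no cell, and the median when detected was 5.29. A gap across FPKM 1 of at least 3.02, the gap of Kitl, was seen in 2.78% of the 4746 rows detected in 4 to 13 cells. The gap was measured after the values of Kitl had been seen. Of the 7 cells 5 were among cells 6 to 14, 1 was cell 2 and 1 was cell 17.

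Of 11 genes for Kit ligand's receptor and other niche factors, 8 had a row. Igf1 (mean 6.97, SD 3.22), the macrophage growth factor gene Csf1 (mean 6.85, SD 1.48) and the cytokine gene Il6 (mean 6.12, SD 3.10) were found in each cell, and the chemokine gene Cxcl12 (mean 5.66, SD 2.41) in 16. Il7 was at 7.83 at most and above FPKM 1 in 2 cells, both with Kitl. Cxcl12, which bone marrow stromal cells make together with Kitl, had the highest Spearman correlation with Kitl of the 8, 0.65 (Pearson 0.47), and the median was 0.06. With 8 genes compared over 17 cells, this is a description.

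Eng encodes endoglin, a co-receptor for ligands of the TGF-beta family and a standard antigen of cultured stromal cells. The gene (ENSMUSG00000026814) lies on chromosome 2 from 32646595 to 32682669 on the plus strand. It was detected in cells 1 (5.54), 16 (2.70), 15 (1.90), 2 (1.27) and 12 (1.21), and only cell 1 passed FPKM 10. The other 12 cells lay between 0, in cells 10 and 14, and 0.91 in cell 9, so the detected and undetected cells met without a clear gap. The mean was 0.97 (SD 1.39) and the median 0.44, and 23.3% of rows had a lower mean.

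The last 61 bases of Eng, chr2:32682609-32682669, overlap Fpgs, a folate enzyme gene on the opposite strand, at the tail end of both genes. The library kit reads the 3′ ends of transcripts, and whether strand was used in counting is not given in the sources used here. Without strand, reads of these genes cannot be told apart within the overlap. Fpgs was above FPKM 1 in cells 1 (5.40), 9 (4.53) and 8 (4.11), and at 0.48 or less elsewhere. The highest value of Eng was thus in the cell with the highest value of Fpgs, whereas cells 2, 12, 15 and 16 held Eng with Fpgs at 0.34 or less. The Pearson correlation of Eng and Fpgs was 0.54, and the Spearman correlation 0.25.

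**Figure D2:**
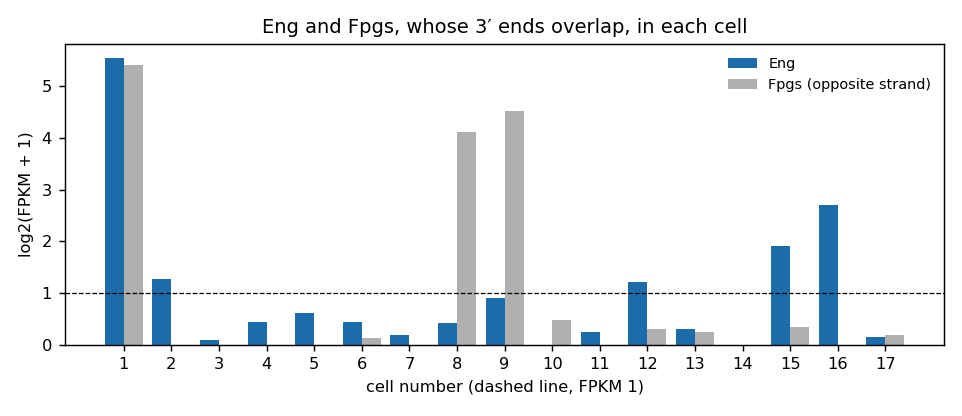
Values of Eng (blue) and of the overlapping gene Fpgs (grey) in each of 17 cells, as log2(FPKM + 1), with a dashed line at FPKM 1. Both genes peak in cell 1, at 5.54 and 5.40, while cells 8 and 9 hold Fpgs with Eng under FPKM 1 and cells 15 and 16 hold Eng with Fpgs under it.

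Of 17 endoglin partners and TGF-beta family receptors, 16 had a row. In every cell were the target Id3 (mean 8.66, SD 1.84), the receptor Tgfbr2 (mean 6.41, SD 1.51) and the co-receptor Tgfbr3 (mean 5.27, SD 1.91), while the mediator Smad4 (median 2.33) was detected in 12. Acvrl1, the receptor with which endoglin acts in blood vessels, was detected in 10 cells, and in 4 of the 5 with Eng. The co-receptor Tgfbr3 was thus in every cell while its relative Eng was in few. The median Spearman correlation of Eng with the 16 genes was 0.13, and Smad4 had the highest, 0.52 (Pearson 0.52).

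Endoglin and Vcam1 also belong to blood vessel lining, so the endothelial markers were read in the same cells. Of 11 endothelial markers 3 had a row, Tek, Plvap and Esam. Each cell had 0 to 2 of them, and their summed level ran from 0.39 to 6.24. Among the 5 cells with Eng, cell 1 had Plvap at 4.21, cell 12 Tek at 3.10 and Plvap at 3.07, cell 15 Tek at 5.07 and cell 16 Esam at 3.92, while cell 2 had none. Of the cells without Eng, cells 3, 5, 6, 8, 10, 11, 13 and 17 also held Tek, Plvap or Esam, and cells 4, 7, 9 and 14 held none. Tek and Plvap were highest in cells without Eng, at 6.24 in cell 5 and 5.92 in cell 3, whereas Esam was highest in cell 16. Their part in the Eng values was not tested.
Of other cell types that carry some of the 6 genes, 2 of 8 keratinocyte markers, 1 of 10 immune markers and 1 of 9 melanocyte or mast cell markers had a row. Krt10, a keratin of the upper epidermis, was detected in 5 cells, and so were Csf1r, the macrophage growth factor receptor, and Mitf, a melanocyte and mast cell regulator. For these 3 cell types few markers were measured.
Pericytes and smooth muscle cells of vessel walls were better covered, with rows for 6 of 11 markers. Cells 1 to 5 each had 4 or 5 of the 6, among them the smooth muscle actin gene Acta2, and every other cell had 0 to 2. In cells 1 to 5 Acta2, Myl9, Rgs5, Higd1b and Abcc9 were all under FPKM 10. Only Kcnj8 passed it, in cells 4 and 5, with its highest value, 6.48, in cell 5. The sets of cells were also drawn from low values, so this contrast between sets rests largely on low values. The summed level of these markers ran from 2.85 to 6.55 in cells 1 to 5, from 0.15 to 5.64 in cells 6 to 14 and from 1.81 to 4.51 in cells 15 to 17, so the levels overlapped. No cell from 15 to 17 had Acta2, Myl9, Rgs5 or Abcc9. These 5 cells also had the lowest set mean of Cd44, 4.16, and of Kitl, with Kitl detected in 1 of them, and included the highest Eng value and cell 2. The part of these markers in the values of the 6 genes was not tested.

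Read together, the 3 genes found everywhere plus Thy1 were detected jointly in 15 of 17 cells, and all 6 genes in cell 2 alone. In cell 2 the values were Pdgfra 5.85, Cd44 4.86, Vcam1 6.77, Thy1 7.11, Kitl 3.76 and Eng 1.27. Of the remaining cells 9 had 5 of the genes, 6 had 4, and cell 9 had 3, with a median of 5. At FPKM 10 or more no cell had all 6, 4 cells (1, 2, 6 and 17) had 5, 4 had 4, 7 had 3 and 2 (cells 3 and 5) had 2.
At that threshold 11 cells had Pdgfra, Cd44 and Vcam1 together, and 6 had these 3 with Thy1. The co-detection of the genes found in every cell follows from their single counts.

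**Figure D3:**
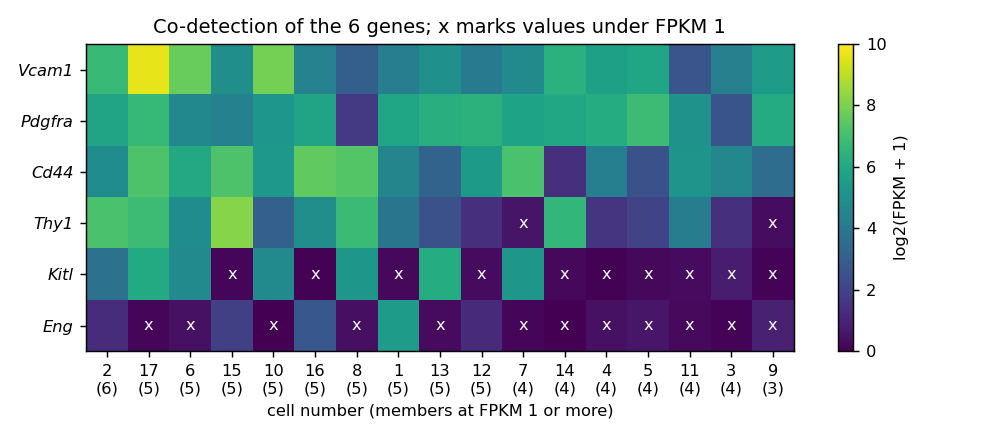
The 6 genes (rows, ordered by mean) in 17 cells (columns, ordered by how many of the genes were detected, given in brackets), coloured by log2(FPKM + 1), with x for values under FPKM 1. Cell 2 has all 6 genes, cell 9 has 3, and missing values are those of Kitl and Eng except for 2 of Thy1.

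Kitl and Eng, detected in 7 and 5 cells, were found together in cell 2 alone. Kitl was detected without Eng in 6 cells, Eng without Kitl in 4 and neither in 6. Their Pearson correlation was -0.39 (Spearman -0.50, n = 17 cells), from -0.44 to -0.34 with each cell left out in turn. It moved more when sets of cells were handled. The correlation was -0.29 after the mean of each set was subtracted, -0.28 without cells 15 to 17 and -0.57 without cells 1 to 5. Pairs of the 6177 rows detected in 5 or more cells, as all 6 genes were, served for comparison. The middle 95% of their Pearson correlations ran from -0.48 to 0.50, so -0.39 over all 17 cells lies within the common range. Eng was under FPKM 10 in 4 of its 5 cells, so at that threshold it was found in cell 1 alone.

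Over all 15 pairs the Pearson correlation ran from -0.39 for Eng and Kitl to 0.42 for Vcam1 and Kitl, with a mean of 0.05, and 9 pairs were positive. No pair fell outside the middle 95% of these row pairs. Pdgfra and Vcam1 had 0.40, which fell to 0.23 without cell 8, where both were low. Vcam1 and Kitl had 0.42 but a Spearman correlation of 0.14, and 0.25 without cell 17. Pdgfra and Cd44 had -0.36 (Spearman -0.46), and -0.22 without cell 8, the cell with the lowest Pdgfra and high Cd44. The correlation was -0.50 after the mean of each set of cells was subtracted and -0.58 in cells 6 to 14 alone. It was negative in each of the 24 settings run, but most of these reuse nearly the same cells, and 7 of the 15 pairs kept their sign. Pdgfra and Thy1, at -0.24 over all cells and -0.64 in cells 6 to 14 alone, were among these 7. Cd44 and Kitl had 0.34, and 6 of the 7 cells with Kitl had Cd44 at 4.86 or more, as did 4 of the 10 without it. The cut of 4.86 is the Cd44 value of cell 2, itself a cell with Kitl, so this split is no separate support. Cd44 and Thy1 had 0.31, but 0.00 after the mean of each set of cells was subtracted, so that this relation was not seen within sets.
No common rise and fall of the 6 genes was seen over these cells.

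**Figure D4:**
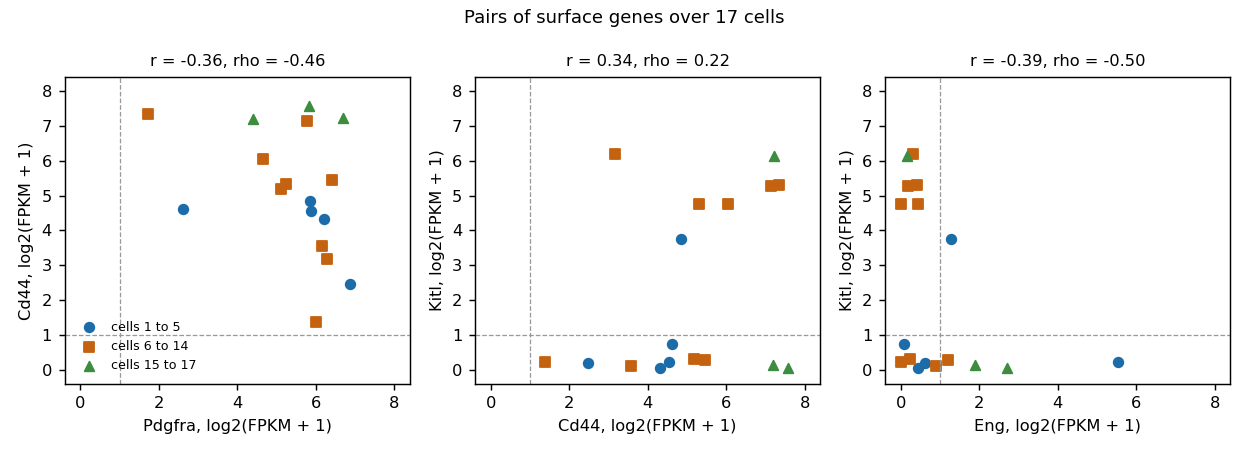
Pairs of genes over 17 cells, each axis in log2(FPKM + 1), with colour and shape for the 3 sets of cells, dashed lines at FPKM 1 and the Pearson (r) and Spearman (rho) correlation above each panel. Cd44 is high where Pdgfra is lowest (cell 8), Kitl is either near 0 or above 3.7, and Kitl and Eng share only cell 2 beyond both lines.

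The order of mean levels was Vcam1 (5.48), Pdgfra (5.39), Cd44 (5.14), Thy1 (3.90), Kitl (2.27) and Eng (0.97), on the log2(FPKM + 1) scale, which is per length. Vcam1 and Pdgfra differed by 0.09 (SD of the difference within cells 1.78), with Vcam1 higher in 8 cells and lower in 9. Pdgfra and Cd44 differed by 0.25 (SD 2.66), so the first 3 were not ordered beyond their spread. Cd44 exceeded Thy1 in 14 of 17 cells by 1.24 on average (SD 2.64), and Thy1 exceeded Kitl in 14 by 1.63 (SD 3.29). Kitl and Eng differed by 1.30 (SD 3.35), with Kitl higher in 10 cells. Each of these differences was smaller than its SD over cells. A kit that reads 3′ ends takes fragments from the end of a transcript whatever its length, so division by length can lower long genes. The exonic lengths were 10024 bases for Pdgfra, 8870 for Vcam1, 6776 for Cd44, 5911 for Kitl, 4048 for Eng and 2995 for Thy1. Multiplied by length, the order changed only in placing Pdgfra (8.65) before Vcam1 (8.58).

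Other surface genes of mesenchymal stem cells included some at far higher levels than the 6. Of 20 such genes 12 had a row, 6 were detected in all cells and all 12 in 9 or more, as 46.9% of rows were. The tetraspanins Cd63 (mean 10.76, SD 0.69), Cd81 (mean 9.11, SD 0.86) and Cd9 (mean 8.56, SD 1.96) and the sialomucin Cd34 (mean 9.67, SD 0.93) led them. Cd34 marks skin fibroblasts of mice, whereas cultured human stromal cells are defined by lacking it. It was at 7.25 or more in every cell, above the highest Pdgfra value, 6.87. The aminopeptidase Anpep was detected in 13 cells, the integrin subunit Itga5 in 12 and Cd200 in 10.
Of 10 genes that stromal cells should lack, only Cd14, a co-receptor for bacterial lipopolysaccharide, had a row. It was detected in cells 3 (5.64), 4 (5.40) and 6 (6.40). The other 9 are not analysed here, so the negative part of the definition could not be checked.

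Of 11 genes for proteases that shed surface proteins and for their inhibitors, 10 had a row and 3 were detected in all 17 cells. These were the inhibitors Timp2 (mean 8.53, SD 0.95) and Timp1 (mean 8.14, SD 1.73) and the membrane protease Mmp14 (mean 6.81, SD 1.09), which is known to cleave Cd44 and endoglin. Adam15 (mean 5.07, SD 2.07) was detected in 16 cells, Adam17 in 11, Adam10 in 8, Adam19 in 6 and Adam12 in 2. Over all lists, 89 partner genes had a row. Detection in every cell held for 26 of these (29.2%), against 13% of rows.

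**Figure D5:**
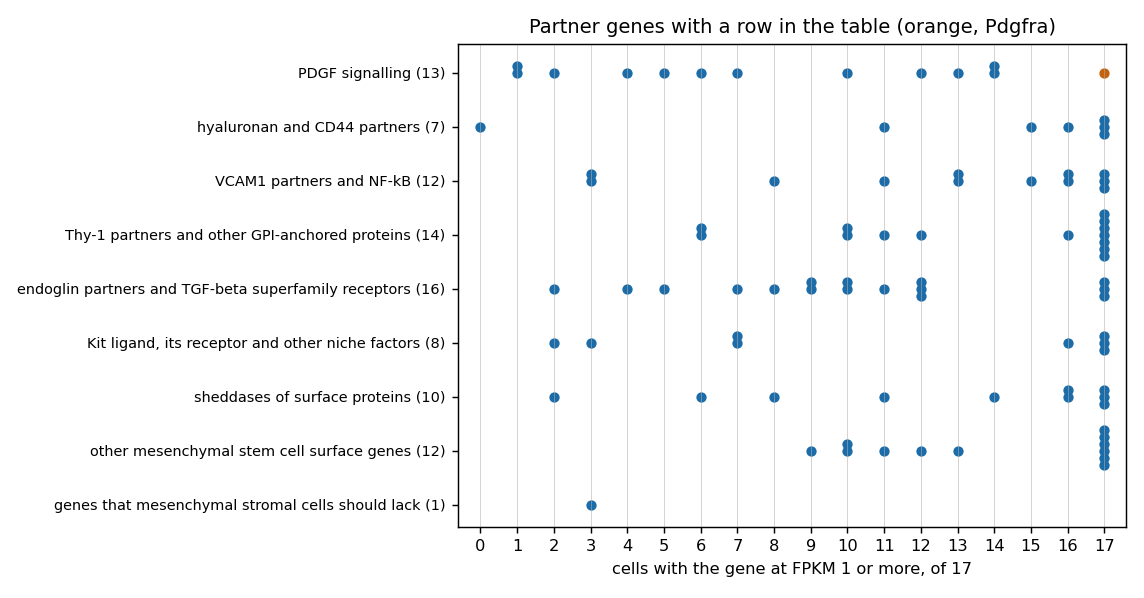
Number of cells, of 17, in which each partner gene of the 6 surface genes was detected at FPKM 1 or more (1 point per gene, stacked where equal, with the number of genes that have a row in brackets). Each list except the PDGF list and the list of genes that should be lacking has 3 or more partner genes at 17 cells.

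Genes whose pattern over cells was most like each of the 6 were ranked by Spearman correlation among genes detected in 9 or more cells, 3815 or 3816 for each. For Thy1 they were Enpp2 (0.81), which makes lysophosphatidic acid, Pdpn (0.76), the stromal glycoprotein podoplanin, and Itih5 (0.75), a hyaluronan-associated protein. For Pdgfra they were Atxn2 (0.81), Adamts2 (0.75), the enzyme that trims the amino ends of procollagen, and Ndufv3 (0.74), a subunit of respiratory complex I. For Vcam1 they were Diaph2 (0.75), Ggh (0.74) and Srrm2 (0.73), and for Cd44 Smim3 (0.73), Mtpn (0.72) and Pdzd2 (0.72). For Kitl they were Actr2 (0.75), a subunit of the actin-branching Arp2/3 complex, Cast (0.72), the calpain inhibitor, and Svil (0.71), an actin-binding protein.
For Eng they were Prrx1 (0.79), Hnrnpul1 (0.78) and Hdac7 (0.76). Eng was under FPKM 1 in 12 cells, so its ranks rest mostly on values near 0, and the Pearson correlation with Prrx1 was 0.50. After the mean of each set of cells was subtracted, none of the 3 stayed among the 3 most like Eng. The lists of the other genes changed too. By Pearson correlation 2 of the 3 stayed for Thy1 and Kitl, 1 for Cd44 and Vcam1 and 0 for Pdgfra. With set means subtracted, 1 stayed for Pdgfra, Vcam1 and Kitl and 0 for Cd44 and Thy1. The leading correlations were the highest of all these genes over 17 cells that share libraries and normalisation, and they describe these cells only.

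Library complexity could not be measured, because the reads behind the values are unknown and the cells share 1 distribution. How many genes sat at the lowest value of a cell, from 871 to 1766, was the only stand-in. This number had a Spearman correlation between -0.28 (Kitl) and 0.23 (Cd44) with the 6 genes, which does not settle their relation to library quality. With Prrx1 the Spearman correlation was 0.79 for Eng (Pearson 0.50, with Eng under FPKM 1 in 12 cells), -0.41 for Kitl, 0.39 for Thy1 and between 0.09 and 0.22 for Pdgfra, Cd44 and Vcam1.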

How the data were processed

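Libraries of 17 single cells were made with a kit that reads 3′ ends (SMART-Seq v4 3′ DE) and Nextera XT, per the labels. The submitters' processing notes name TopHat2 and Cufflinks and the build GRCm38, with versions, annotation and filters not given in the sources used here. What the authors deposited is a log scale, read as log2(FPKM + 1). Its base and constant are not stated, and all FPKM thresholds rest on that reading. Sorted values differed between cells by at most 0.0165 above 3, the form that quantile normalisation gives, so depth per cell is unknown.

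Of 8446 rows 8431 (99.8%) matched GENCODE M21 by identifier, which gave positions and exonic lengths. FPKM 5 is a value of 2.58 and FPKM 10 a value of 3.46. The cells count as 1 sample, with no p-value. Sets of cells came from average-linkage clustering on 224 genes under 2.5 in all cells, with the number of sets fixed at 3. Named were the 6 genes, from each list the 4 genes with most cells detected, the 3 most alike genes (ribosomal, mitochondrial and model genes left out) and markers of other cell types in 3 or more cells; further partners were named after their values were seen. Members, lists and alternatives were chosen with earlier results of these data known. Schwann and adipocyte markers had 2 of 5 and 4 of 7 rows; of these and the pericyte markers, Higd1b (7 cells), Acta2, Myl9 and Rgs5 (6 each), Kcnj8 (5), Mbp (12), S100b (5), Fabp4 (12), Cfd (7) and Car3 (6) were detected in 3 or more cells. The ranking was tested on simulated data only with planted partners that followed their gene more closely than the genes named here, so weaker likeness was not tested. Tools were scipy 1.17.1, numpy 2.4.6, matplotlib 3.10.9, pandas 2.3.3 and Python 3.11.15.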

Additional observations from a re-analysis of the deposited data

How the results depend on the processing

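Detection counts depended on the threshold. Thy1 was found in 10 cells at FPKM 5 and 9 at FPKM 10, Eng in 15 above the lowest value of a cell, 2 at FPKM 5 and 1 at FPKM 10, and Kitl in 17 above the lowest value. All 6 genes were found in 15 cells above the lowest value and in 0 at FPKM 5, at FPKM 10, without cells 1 to 5 and in cells 6 to 14 alone. The median per cell was 6 above the lowest value, 4 at FPKM 5 and 3 at FPKM 10, and partner genes in 9 or more cells fell from 63 to 41 at FPKM 10. Multiplied by length, the means were 8.65 for Pdgfra, 7.82 for Cd44 and 8.58 for Vcam1, and with a pseudocount of 0.1 that of Eng was -0.62. The mean pair correlation, 0.05, ran from -0.02 to 0.09 with each cell left out and down to -0.12 over the other settings. Of the 15 pairs 7 kept their sign in all 24 settings, among them one chosen after seeing the data that leaves out the 2 cells farthest from the median of the first gene, and 8 did not. Of 24 settings for the most alike genes 2 kept all 3 and 7 kept none. Rescaling cells moved nothing, since their sums are nearly equal. The causes were not tested beyond what each setting fixes. Depth is unknown, so no detection limit can be given. No paired analysis was possible because there is only 1 group.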
